A study of Mus musculus with 8 samples.

Results

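Trp53, the gene of the transcription factor p53, and 9 genes that p53 is known to activate are described in mouse embryonic stem cells with and without Klf4. The 10 genes, Trp53, Mdm2, Cdkn1a, Btg2, Ccng1, Plk2, Phlda3, Bax, Bbc3 and Sesn2, were taken by symbol from the 52636 Ensembl gene identifiers of the count files, and all 10 were found. The tested cells were KLF4-KO cells, E14 embryonic stem cells whose Klf4 gene had been knocked out, and they were set against unmodified E14 cells (WT). E14 is a line grown from the mouse blastocyst. RNA-seq was available for 2 KO libraries, named B and F in the files, and for 2 WT libraries, replicates 1 and 2. Contacts were measured by HiChIP for RNA polymerase II, which ligates chromatin ends lying close together, pulls down the polymerase and reads each ligated junction as a paired-end tag (PET). HiChIP was available as 1 pooled file per genotype, although the labels list 2 samples of each.

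The labels of all 8 samples carry the same 2 descriptions of the medium, on gelatin and with 15% serum, without saying which was used for which library. One adds 10 ng/mL LIF, the MEK inhibitor PD0325901 at 1 µM and the GSK3 inhibitor CHIR99021 at 3 µM, and the other adds 1000 U/mL LIF. Gene counts came to 8287497 to 8448519 in the KO libraries and 9020599 to 9762190 in the WT libraries. Klf4 had 0 counts in the KO libraries together, against 2882 and 2421 counts in the WT libraries. The Y-linked gene Eif2s3y also had 0 counts in the KO libraries together, against 845 and 769 in the WT libraries. The sources used here do not say whether libraries B and F come from 1 edited clone, so loss of Klf4 and other differences between the cell lines cannot be told apart. Of 10 stem cell markers Utf1, a chromatin-associated factor of pluripotent cells, rose (369 and 369 CPM in KO, against 52.4 and 89.3 CPM in WT, edgeR FDR 0.0052), and 9 were not called. Tdgf1, a NODAL co-receptor gene, was at 914 and 839 CPM in KO, against 476 and 508 CPM in WT (edgeR FDR 0.080, DESeq2 adjusted p = 0.021). The 10 markers, among them Pou5f1, Sox2 and Nanog, summed to 7713 to 8605 CPM in KO and 6837 to 8890 CPM in WT, where CPM is the count of a gene after TMM scaling of all libraries to one common size. Of 14 fibroblast and feeder markers 5 could be tested, and none of these was called. The 5 summed to 20.7 to 26.4 CPM in KO and 28.8 to 29.2 CPM in WT. Among them Pdgfrb was lower in KO (11.02 and 7.34 CPM, against 19.2 and 19.5 CPM in WT, edgeR FDR 0.096). Thy1 was higher (9.82 and 8.41 CPM in KO, against 3.72 and 4.79 CPM in WT, edgeR FDR 0.13). Of the untested markers Postn, Lum and S100a4 had 0 counts in every library. The 5 tested neural markers summed to 39.7 to 63.0 CPM in KO and 53 to 57.0 CPM in WT, while the 5 tested mesendoderm and endoderm markers to 9.59 to 12.8 CPM in KO and 11.7 to 17.2 CPM in WT. Within these sums single markers moved in opposite directions. Of the neural markers Pax6 (6.59 and 3.08 CPM in KO, against 0.106 and 0 CPM in WT, edgeR FDR 0.0097) and Map2 (8.14 and 3.79 CPM in KO, against 1.06 and 0.435 CPM in WT, FDR 0.030) rose, and Nes fell (8.38 and 5.92 CPM in KO, against 27.4 and 32.0 CPM in WT, FDR 0.011). Of the mesendoderm and endoderm markers Gata6 rose (2.99 and 2.84 CPM in KO, against 0.425 and 0.326 CPM in WT, edgeR FDR 0.026) and Gsc fell (0.24 and 0.237 CPM in KO, against 1.91 and 5.22 CPM in WT, FDR 0.025). Leaving out 1 library ended the calls of Map2 (FDR 0.096 without KO library B), Gata6 (0.081 without KO library B, 0.068 without KO library F and 0.079 without WT replicate 2) and Gsc (0.081 without WT replicate 2). The part of other cell types or cell states in the results below was not tested.

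p53 binds DNA as a tetramer and switches on genes that halt the cell cycle, repair DNA, alter metabolism or start apoptosis. It is held at low levels by MDM2, a ubiquitin ligase whose gene p53 itself activates, which closes a negative feedback loop. In mouse embryonic stem cells p53 is abundant, and it is known there for restraining self-renewal and favouring differentiation after DNA damage.

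The DNA just upstream of the starts of these genes is shown because p53 and KLF factors both act through short motifs in such sequence. The tables of RefSeq promoters (GRCm38.p6, the assembly also called mm10) held all 10 genes with 13 start sites, and the 250 bases before each start were searched on both strands. The motif of p53 is a decamer that occurs as a pair in a full site, and an exact match to its consensus was present in 5 of the 13 windows, in 5 of 10 genes. Of all 32851 windows in the table, 7.13% held a match. The KLF motif CCNCACCC was present in 4 of the 13 windows, in 3 genes, against 14.9% of all windows. Of these 4, 2 windows of Bbc3 overlap and hold the same matches, so they count the same bases again. The 5 windows with a p53 decamer read as follows, 5′ to 3′ on the strand of the gene, with matches to either motif in capitals.
Cdkn1a, first start, chr17:29090729-29090978, plus strand: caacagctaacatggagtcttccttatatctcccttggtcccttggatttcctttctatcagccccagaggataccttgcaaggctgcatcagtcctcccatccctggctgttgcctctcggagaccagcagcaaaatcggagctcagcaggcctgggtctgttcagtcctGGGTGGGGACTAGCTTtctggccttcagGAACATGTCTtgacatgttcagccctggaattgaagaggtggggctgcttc
Trp53, chr11:69580109-69580358, plus strand: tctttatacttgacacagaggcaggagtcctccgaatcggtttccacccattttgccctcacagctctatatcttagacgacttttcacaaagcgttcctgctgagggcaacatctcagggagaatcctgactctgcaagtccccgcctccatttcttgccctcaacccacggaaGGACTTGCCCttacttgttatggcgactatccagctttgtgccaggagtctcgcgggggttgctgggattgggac
Mdm2, chr10:117710759-117711008, minus strand: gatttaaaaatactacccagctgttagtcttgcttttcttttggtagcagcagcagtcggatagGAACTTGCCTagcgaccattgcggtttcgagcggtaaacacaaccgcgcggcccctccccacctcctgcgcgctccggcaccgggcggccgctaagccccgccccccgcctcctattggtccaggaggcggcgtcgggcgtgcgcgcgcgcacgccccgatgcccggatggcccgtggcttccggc
Ccng1, chr11:40755287-40755536, minus strand: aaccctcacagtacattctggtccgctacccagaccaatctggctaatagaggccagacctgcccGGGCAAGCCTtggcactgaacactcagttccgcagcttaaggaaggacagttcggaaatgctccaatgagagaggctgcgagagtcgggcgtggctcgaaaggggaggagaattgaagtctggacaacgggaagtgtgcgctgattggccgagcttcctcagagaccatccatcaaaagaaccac
Bax, chr7:45466899-45467148, minus strand: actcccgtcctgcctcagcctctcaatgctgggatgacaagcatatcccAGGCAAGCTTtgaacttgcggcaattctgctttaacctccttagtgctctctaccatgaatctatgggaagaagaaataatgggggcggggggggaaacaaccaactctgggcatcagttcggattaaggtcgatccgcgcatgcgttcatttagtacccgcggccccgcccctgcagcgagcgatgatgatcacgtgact
Counted from -1 at the base before the start, the first Cdkn1a window had p53 decamers beginning at -73 (GGACTAGCTT) and -51 (GAACATGTCT). It also had a KLF motif at -79 (GGGTGGGG), whose last 2 bases are the first bases of the decamer at -73. The decamers at -73 and -51 are not adjacent. Directly after the decamer at -51 stands tgacatgttc, which departs from the consensus only at its first base and so was not marked. An exact match to the decamer lay at -75 in Trp53, at -186 in Mdm2, at -185 in Ccng1 and at -201 in Bax. Cdkn1a has a second start further downstream, and neither motif was found in the 250 bases before it. A match in letters does not show binding, and p53 sites outside these windows, such as those known in the first intron of Mdm2, were not searched.

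The expression of 6 of the 10 genes fell in KO cells and none rose. These were Cdkn1a, Phlda3, Btg2, Plk2, Ccng1 and Sesn2, with falls between 2.05-fold and 5.63-fold. Trp53 itself, its inhibitor gene Mdm2 and the apoptosis genes Bax and Bbc3 did not pass the threshold, a false discovery rate (FDR) of 0.05 in edgeR's quasi-likelihood test over 15517 tested genes. Over all tested genes 8.3% were called, 5.34% lower and 2.96% higher in KO. All 10 genes passed the filter on low counts. The median log2 fold change (KO over WT) was -1.17 over the 10 genes and 0.00 over all tested genes. Both KO libraries were below both WT libraries for 8 of the 10 genes, against 27.5% of all tested genes. The 10 genes were chosen with earlier results of these data known, so these comparisons do not measure how unusual the group is. RNA was measured in bulk, so fewer cells expressing a gene and less RNA per cell cannot be told apart.

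**Figure D1:**
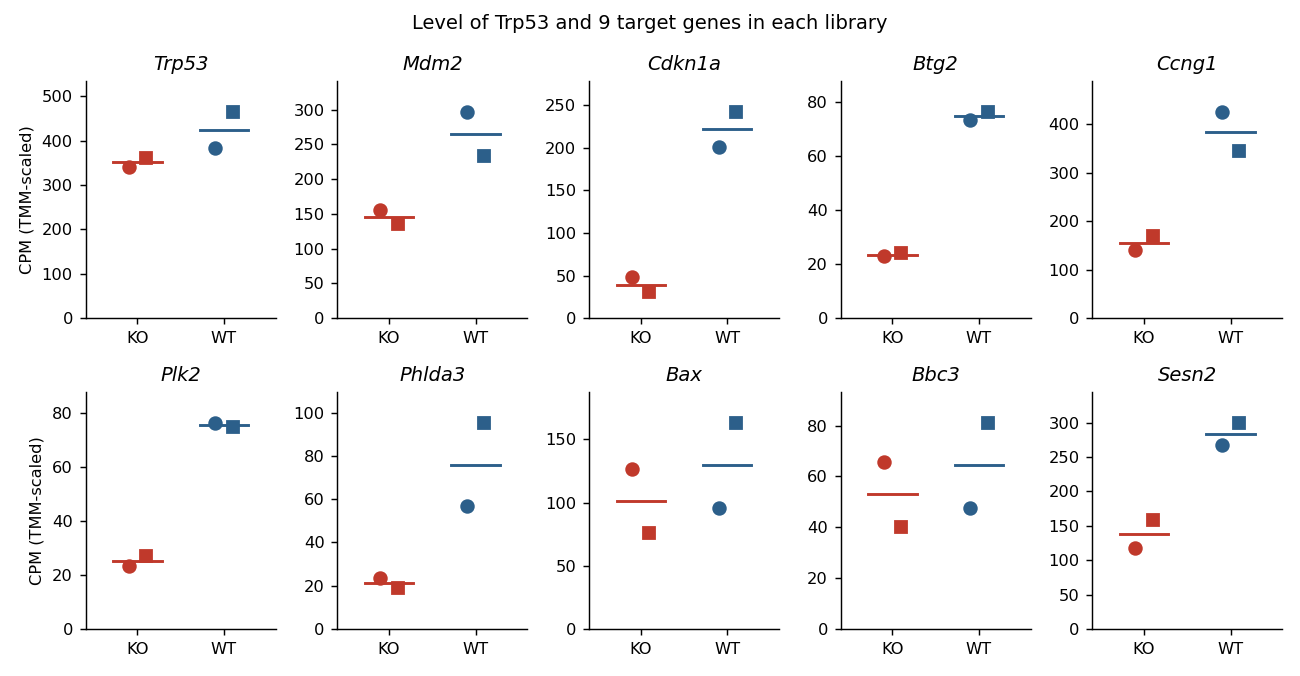
Level of each gene in each RNA-seq library, in CPM after TMM scaling, with KO libraries B (circle) and F (square) on the left, WT replicates 1 (circle) and 2 (square) on the right, and the group mean as a line. KO and WT points are apart in 8 genes and overlap in Bax and Bbc3.

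Trp53 (ENSMUSG00000059552, chromosome 11, 69580348 to 69591873) measured 341.7 and 361 CPM in KO libraries B and F, against 384 and 465 CPM in WT replicates 1 and 2. The KO values lay below both WT values, and the spread within WT was wider than the gap between the groups. Wrap53, which overlaps the start of Trp53 on the other strand, was at -0.07 (edgeR FDR 0.92), and reads of the overlap cannot be told apart where strand was not counted. The log2 fold change of Trp53 was -0.27 (95% confidence interval, CI, -0.83 to 0.29, edgeR FDR 0.55). Mdm2 (ENSMUSG00000020184, chromosome 10, 117688875 to 117710758) had 155 and 135 CPM in KO, against 297 and 233 CPM in WT. These groups did not overlap, and the log2 fold change was -0.87 (95% CI -1.43 to -0.30), short of the threshold at an edgeR FDR of 0.069. Mdm2 was called lower by DESeq2 (adjusted p = 0.036) and in edgeR without WT replicate 2 (FDR 0.010), and its edgeR FDR reached 0.55 among the other settings.

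All 4 genes of cell cycle control among the 10 fell in KO cells. Cdkn1a (ENSMUSG00000023067, chromosome 17, 29090979 to 29100722) encodes p21, which blocks cyclin-dependent kinases, and it measured 48.0 and 30.6 CPM in KO, against 201 and 242 CPM in WT. Both KO values were far below both WT values, and the log2 fold change of -2.49 (95% CI -3.18 to -1.81, edgeR FDR 0.0039) was the largest in size among the 10 genes. Btg2 (ENSMUSG00000020423, chromosome 1, 134074865 to 134079155), an antiproliferative adapter of the mRNA deadenylation machinery, had 23.0 and 23.9 CPM in KO, against 73.4 and 76.2 CPM in WT. Its libraries agreed closely within each genotype, and the log2 fold change was -1.67 (95% CI -2.25 to -1.10, edgeR FDR 0.0087). Ccng1 (ENSMUSG00000020326, chromosome 11, 40748552 to 40755309), which encodes cyclin G1, a partner of phosphatase PP2A in the control of MDM2, had 140.4 and 169 CPM in KO, against 425 and 344 CPM in WT. The log2 ratio of KO to WT for Ccng1 was -1.31 (95% CI -1.89 to -0.73, edgeR FDR 0.019). The gene of the polo-like kinase PLK2 (ENSMUSG00000021701, chromosome 13, 110395044 to 110400844) had 23.2 and 27.0 CPM in KO, against 76.4 and 74.6 CPM in WT. As for Btg2, the spread within each genotype was small beside the difference, and Plk2 differed by -1.59 on the log2 scale (95% CI -2.17 to -1.0, edgeR FDR 0.011).

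Among genes of survival, death and metabolism the outcomes divided. Phlda3 (ENSMUSG00000041801, chromosome 1, 135766085 to 135769134) encodes a membrane-lipid binding protein that holds back the kinase AKT. It measured 23.4 and 18.8 CPM in KO, against 56.6 and 95.4 CPM in WT, where replicate 2 was the higher. For Phlda3 the log2 ratio of KO to WT was -1.85 (95% CI -2.60 to -1.10, edgeR FDR 0.014). Sesn2 (ENSMUSG00000028893, chromosome 4, 132492804 to 132510456), whose product sestrin 2 is a stress-induced inhibitor of the growth kinase mTORC1, had 118 and 159 CPM in KO, against 267 and 300.0 CPM in WT. The KO libraries were lower than both WT libraries, with a log2 difference of -1.04 (95% CI -1.62 to -0.45), and the edgeR FDR of 0.044 was the nearest to the threshold among the 6. With library totals in place of TMM scaling it was 0.054.

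Bax (ENSMUSG00000003873, chromosome 7, 45461695 to 45466903), which encodes the pore-forming effector of mitochondrial apoptosis, had 127 and 76.2 CPM in KO, against 95.7 and 163 CPM in WT. Bbc3 (ENSMUSG00000002083, chromosome 7, 16308398 to 16318334), the gene of the BH3-only activator PUMA, had 65.6 and 40.2 CPM in KO, against 47.5 and 81.1 CPM in WT. In both genes KO library B and WT replicate 2 were the high values, and the genotypes overlapped. Their log2 fold changes were -0.35 for Bax (95% CI -1.14 to 0.43, edgeR FDR 0.58) and -0.28 for Bbc3 (95% CI -1.08 to 0.52, edgeR FDR 0.67). Both intervals include the log2 fold change measured in Sesn2. Without WT replicate 2 the sign turned, to 0.051 for Bax and 0.12 for Bbc3, and without KO library F to 0.037 for Bbc3.

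**Figure D2:**
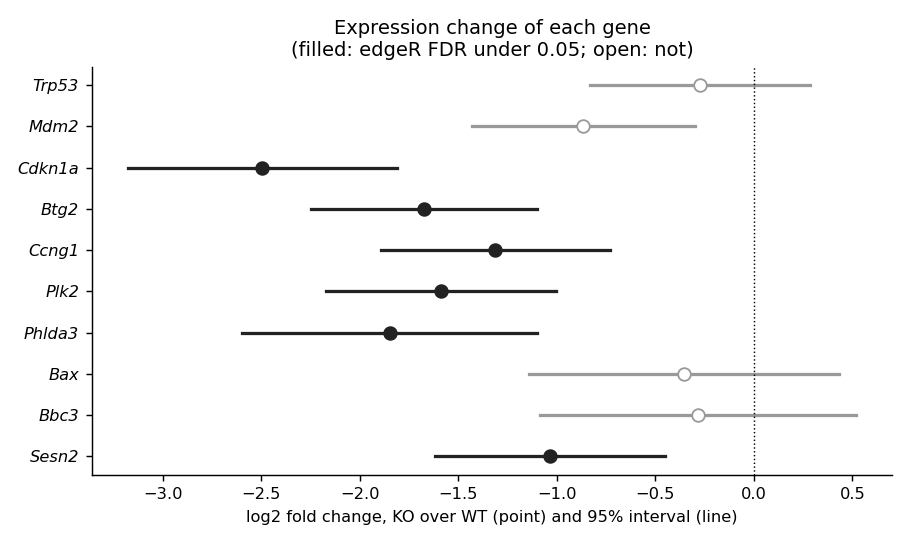
Log2 fold change of each gene, KO over WT, as a point with its 95% CI from edgeR as a line (2 libraries per genotype). Filled points passed an FDR of 0.05 and run from -2.49 in Cdkn1a to -1.04 in Sesn2, and open points did not pass.

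The number of genes called moved with the libraries used. Without KO library B, 3 of the 10 genes passed (Cdkn1a, Phlda3 and Btg2), and the edgeR FDR was 0.064 for Plk2, 0.18 for Ccng1 and 0.40 for Sesn2. Without KO library F, 4 passed, and the FDR was 0.092 for Ccng1 and 0.16 for Sesn2.

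Levels of the genes around each of the 10 did not share one direction. Of 200 tested genes made up of the 10 nearest on each side, 10 were called lower and 4 higher in KO. These counts are near the shares over all tested genes, 5.34% lower and 2.96% higher. Around Cdkn1a, Trp53 and Sesn2 no neighbour of 20 was called by edgeR in either direction, and the neighbour median log2 fold change was 0.04, 0.34 and 0.16. Around Phlda3 4 of 20 neighbours were called lower, among them those directly beside it, Csrp1 (log2 fold change -1.37, edgeR FDR 0.020) and Tnni1 (-3.41, edgeR FDR 0.023), and the neighbour median was -0.44. Beside Btg2, Atp2b4 fell (log2 fold change -1.78, edgeR FDR 0.049). Directly upstream of Cdkn1a, the p53-responsive non-coding RNA gene Trp53cor1 (lincRNA-p21) was at 0.12 and 0.47 CPM in KO, against 1.38 and 1.41 CPM in WT (log2 fold change -2.18, edgeR FDR 0.13). Whole chromosomes carrying the 10 genes had median log2 fold changes between -0.10 and 0.06.

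The profiles closest to Trp53 and Cdkn1a over the 4 libraries were found by the root mean square difference of mean-centred log2 CPM, among genes with a mean of at least 10 CPM. For Trp53 they were Gmeb1 (0.0068), Eif2d (0.011) and Stx18 (0.015). For Cdkn1a they included Hspb8, a small heat shock protein gene (0.062), and Mvb12b (0.11). Hspb8 had 33.7 and 19.9 CPM in KO, against 146 and 175 CPM in WT.

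Other genes of the pathway, from lists of textbook targets and regulators also chosen with earlier results known, did not move as a block. Of 21 tested p53 relatives and regulators, including Mdm4, Atm and Usp7, 0 were called by edgeR, by DESeq2 and by limma voom. Over all tested genes edgeR called 8.3%. At an unadjusted p under 0.05 edgeR gave 3780 of all 15517 tested genes and 1 of these 21. That gene, Chek1, which encodes a checkpoint kinase, had 98.2 and 117 CPM in KO, against 69.0 and 56.0 CPM in WT (log2 fold change 0.78, edgeR FDR 0.095). Ppm1d, a phosphatase gene that p53 activates and that damps p53, stood at -0.58 on the log2 fold scale (edgeR FDR 0.27), the p53 relative Trp73 at -0.85 (FDR 0.27) and the ubiquitin ligase gene Cop1 at 0.40 (FDR 0.36). Without WT replicate 1, which leaves 1 WT library, the log2 fold change was 2.22 for Atm, 1.05 for Sirt1 and 0.93 for Chek1. With all libraries the genotypes overlapped in Atm (26.8 and 68.8 CPM in KO, 44.7 and 10.2 CPM in WT, edgeR FDR 0.50). They also overlapped in Sirt1 (59.6 and 111 CPM in KO, 71.7 and 41.0 CPM in WT, edgeR FDR 0.38).

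Where 5.34% of all tested genes fell and 2.96% rose, 9 of 49 tested targets outside the 10 fell and 2 rose. The median log2 fold change of the 49 was -0.26. Without KO library B, and likewise without KO library F, 3 fell and 1 rose. By group, targets of metabolism, autophagy and redox fell in 7 of 16 cases and none rose (median -0.76). Both KO libraries were below both WT libraries in 14 of the 16. Ephx1, the gene of microsomal epoxide hydrolase, had 9.94 and 5.57 CPM in KO, against 32.1 and 35.2 CPM in WT, a log2 fold change of -2.12 (edgeR FDR 0.013). Ak1, an adenylate kinase gene (-1.47, edgeR FDR 0.014), Tpp1, a lysosomal peptidase gene (-1.15, FDR 0.027), and Dcxr, a carbonyl reductase gene (-1.79, FDR 0.030), also fell. The calls of Ak1 and Tpp1 were lost without either KO library (FDR 0.053 to 0.23).

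Apoptosis targets fell in 2 of 15 cases and rose in 1 (median -0.03), where 5.34% of all tested genes fell and 2.96% rose. Trp53inp1, which encodes a stress protein of autophagy and cell death, had 79.4 and 100.3 CPM in KO, against 391 and 219 CPM in WT (log2 fold change -1.76, edgeR FDR 0.016). Tnfrsf10b, the gene of a TRAIL death receptor, fell (-1.26, FDR 0.031, and 0.12 to 0.20 without either KO library). Pml, the organiser of nuclear bodies, rose, with 289 and 287 CPM in KO against 132 and 112 CPM in WT (1.24, FDR 0.019, and 0.095 to 0.098 without either KO library). Bid, a BH3-only gene, stood at -0.64 on the same scale (FDR 0.14). Arrest and repair targets had no fall and 1 rise among 18 (median -0.19). The rise was in Gadd45a, a growth arrest gene, at 104 and 112 CPM in KO against 31.8 and 48.0 CPM in WT (log2 fold change 1.44, edgeR FDR 0.020). Btg1, a relative of Btg2, had one of -0.95 (edgeR FDR 0.071), the replication clamp gene Pcna one of 0.79 (FDR 0.076) and the translesion polymerase gene Polh one of 0.98 (FDR 0.11). Btg1 and Pcna passed in DESeq2 (adjusted p = 0.039 and 0.035), and Btg1 also without WT replicate 1 (edgeR FDR 0.026) or 2 (0.043).

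**Figure D3:**
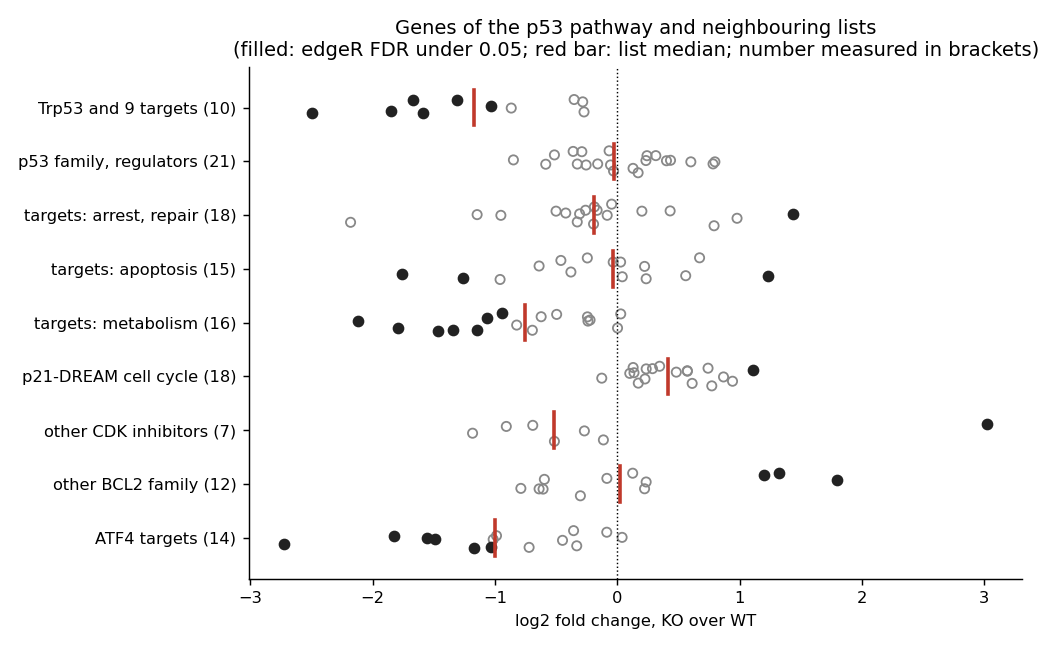
Log2 fold change (KO over WT) of every tested gene in 9 lists, 1 point per gene, filled where edgeR's FDR was under 0.05, with the list median as a red bar and the number tested in brackets. Metabolic targets (median -0.76) and the ATF4 list, which includes Atf4 itself (median -1.0), lie mostly below 0. Cell cycle genes repressed through p21 and DREAM lie mostly above it (median 0.41).

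Genes downstream of p21 were examined through the DREAM complex, a repressor of mitotic genes that p21 activates. Of 18 tested, 1 rose and none fell, where 2.96% of all tested genes rose and 5.34% fell. Of the 18 log2 fold changes 17 were above 0 (median 0.41), against 7742 of the 15517 over all tested genes. Kif23, a mitotic kinesin gene, had 126 and 134 CPM in KO, against 67.3 and 53 CPM in WT (log2 fold change 1.11, edgeR FDR 0.030, and 0.051 to 0.18 without WT replicate 2 or either KO library). The spindle checkpoint kinase genes Ttk (0.87, edgeR FDR 0.063) and Bub1 (0.94, FDR 0.070) and the mitotic kinase gene Plk1 (0.77, FDR 0.087) did not pass. Ttk and Bub1 passed in DESeq2 (adjusted p = 0.035 and 0.025) and without WT replicate 1 (edgeR FDR 0.029 and 0.0042).

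Among 7 cyclin-dependent kinase inhibitor genes other than Cdkn1a, 1 rose, the imprinted gene Cdkn1c (p57), with 48.0 and 19.7 CPM in KO against 3.40 and 4.89 CPM in WT (log2 fold change 3.03, edgeR FDR 0.011). The median over the 7 was -0.51. In the BCL2 family apart from Bax and Bbc3, 3 of 12 genes rose and none fell. For both groups the share over all tested genes was 2.96% higher and 5.34% lower. The BH3-only genes Bcl2l11 (BIM) and Bmf had log2 fold changes of 1.8 (edgeR FDR 0.016) and 1.32 (FDR 0.030, and 0.18 without KO library B). The anti-apoptotic gene Mcl1 stood at 934 and 632 CPM in KO, against 353 and 329 CPM in WT (1.2, edgeR FDR 0.038, and 0.34 without KO library B and 0.059 without KO library F).

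Sesn2 is also known as a target of ATF4, the factor of the integrated stress response, and that list was set beside it. Of the 14 tested genes of the list, which includes Atf4 itself, 6 fell, Sesn2 among them, and none rose (median -1.0). Over all tested genes 5.34% fell and 2.96% rose. Atf4 was at 347 and 414 CPM in KO, against 423 and 552 CPM in WT (log2 fold change -0.36, edgeR FDR 0.45). Atf3 had 1.8 and 2.25 CPM in KO, against 12.8 and 14.1 CPM in WT (log2 fold change -2.72, edgeR FDR 0.0085). Nupr1 (-1.56, edgeR FDR 0.019), Cebpb (-1.83, FDR 0.026) and the asparagine synthetase gene Asns (-1.17, FDR 0.030) fell as well. Asns lost its call without KO library B (FDR 0.28) or F (0.22), and Nupr1 without KO library F (0.068). Whether the lower Sesn2 level goes with p53 or with ATF4 was not tested.

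Polymerase II contacts at the 10 genes were compared between 1 pool per genotype, so there is no replicate check, and intervals cover counting error only. The KO pool held 401726 PETs over 18293 anchors with a median length of 2932 bp, against 35189 PETs over 8373 anchors with a median length of 1999 bp in the WT pool. A PET was assigned to a gene when either anchor of its pair overlapped the gene's RefSeq span by at least 1 bp. PETs touched 9 of the 10 genes in KO (all but Btg2), where 73.3% of the 14133 tested genes with a position were touched, and 9 in WT (all but Plk2), where 51.2% were. Together they made up 0.231% of PETs in KO (926 PETs, exact 95% confidence interval, CI, 0.216% to 0.246%) and 0.682% in WT (240 PETs, 0.599% to 0.774%). The anchors differ in length and were called in each pool apart, so these sums move with how much was called.

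A lower share in KO was common among the genes with enough PETs in both pools to be compared. Of 4063 tested genes with at least 4 PETs in each pool, 57.2% had a share at least 2-fold lower in KO and 6.79% a share at least 2-fold higher, with a median ratio (KO over WT) of 0.423. Of the 8 genes of the p53 group with that many PETs, 6 were at least 2-fold lower and none was at least 2-fold higher. The WT pool is smaller, so 4 PETs are a larger share there than in KO, and the filter favours genes with a high WT share. Among the genes it left out, 3200 had at least 4 PETs in KO and 0 in WT. The reverse held for 258 genes. The ratios therefore do not describe all tested genes.

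**Figure D4:**
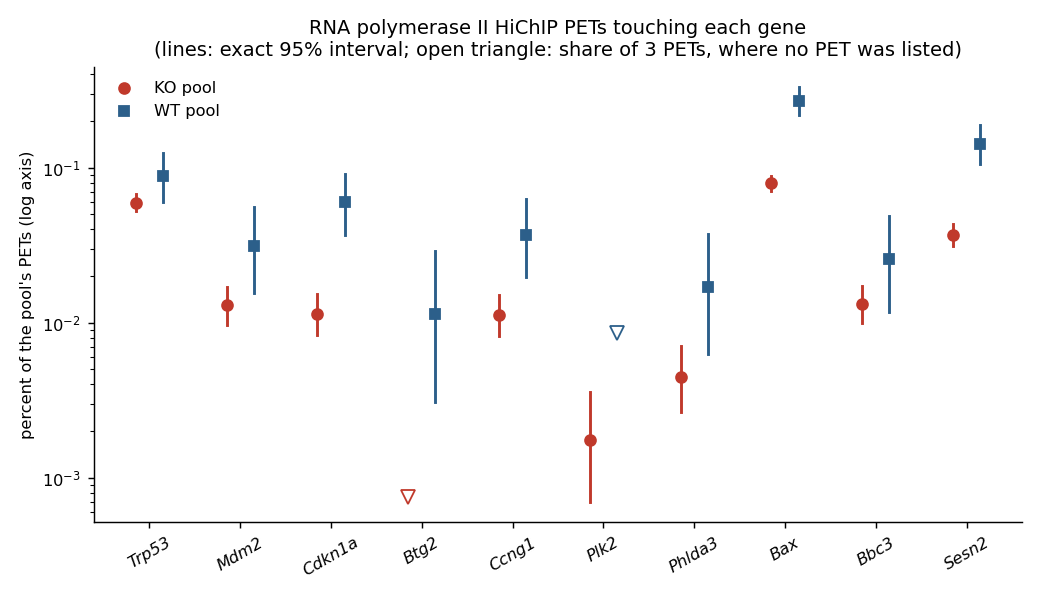
Share of each pool's HiChIP PETs that touch each gene, in percent on a log axis, for the KO pool (red circles) and the WT pool (blue squares) with exact 95% binomial intervals. Where a pool listed no PET (Btg2 in KO, Plk2 in WT) an open triangle marks the share of 3 PETs, the limit that a count of 0 allows.

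Trp53 was touched by 239 PETs in KO (0.0595% of the pool, 95% CI 0.0522% to 0.0675%) and 31 PETs in WT (0.0881%, 0.0599% to 0.125%), a ratio of 0.675. Its anchor at the start, 11350 bp long in KO and 8088 bp in WT, also covered part of Wrap53, the gene that runs away from it on the other strand. PETs on that anchor, 206 in KO and all 31 in WT, belong to both genes. A second KO anchor of 2156 bp, with 47 PETs, overlapped Trp53 alone. The pair with most PETs in KO (46) reached a long anchor centred 107 kb downstream, over Sox15, Eif4a1 and Senp3 among others. In WT 9 PETs joined the anchor to itself. No WT pair with another anchor exceeded 2 PETs, and among the 5 with 2 was one to Kdm6b, 169 kb upstream.

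Cdkn1a had 46 PETs in KO (0.0115%, 95% CI 0.00838% to 0.0153%) and 21 PETs in WT (0.0597%, 0.0369% to 0.0912%), a ratio of 0.192. Of these, 7 in KO and 12 in WT joined an anchor to itself. The ratio was 0.339 for pairs over 20 kb apart and 0.12 for pairs with at least 2 PETs. The anchors sat differently over the starts. In KO one anchor held all 250 bases before the first start, shown above with its p53 decamers, and another held 82 of those before the second start. In WT the only anchor, 1195 bp long, held none of the bases before the first start and all of those before the second. Among pairs of different anchors, the one with most PETs in KO (6) joined the 2 anchors within the gene, whereas in WT (4 PETs) it led to Srsf3, 45.2 kb upstream. An anchor at Trp53cor1 was linked to Cdkn1a by 1 PET from each of the 2 Cdkn1a anchors in KO (12.4 kb upstream) and by 1 PET in WT (12.2 kb upstream).

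Ccng1 had 45 PETs in KO (0.0112%, 95% CI 0.00817% to 0.0150%) and 13 in WT (0.0369%, 0.0197% to 0.0632%), with anchors that began at the same base and measured 3441 bp in KO and 2456 bp in WT. For pairs over 20 kb apart the ratio of shares was 0.131 in place of 0.303. The same partners led in both pools in another order. The anchor at Hmmr and Nudcd2 took 23 of the 45 PETs in KO (51.1%, exact 95% CI 35.8% to 66.3%), against 2 of 13 in WT (15.4%, 1.92% to 45.4%). This partner anchor was 7204 bp long in KO and 1824 bp in WT. Its nearer edge lay within 20 kb of the Ccng1 anchor in both pools. The ratio for pairs over 20 kb apart therefore leaves out these 23 PETs in KO and 2 in WT. The anchor at Mat2b, 60.8 kb downstream and identical in both files, took 6 of 45 PETs in KO (13.3%, 5.05% to 26.8%) and 6 of 13 in WT (46.2%, 19.2% to 74.9%). The partners were picked after their values were seen.

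Sesn2 had 148 PETs in KO (0.0368%, 95% CI 0.0311% to 0.0433%) and 50 in WT (0.142%, 0.105% to 0.187%), a ratio of 0.259. Within 250 kb of its start it had 33 listed pairs of different anchors in KO and 9 in WT, from pools of 401726 and 35189 PETs. The gene carried 3 anchors in KO and 1 in WT, so in KO the same partner could be listed more than once. Pairs between the gene's own anchors are among the 33. PETs joining an anchor to itself numbered 25 in KO and 18 in WT. Among pairs with another anchor, the one with most PETs in KO (17) went to an anchor 4.91 kb upstream, and that in WT (9) to Atpif1 and Dnajc8, 24.2 kb upstream. In KO an anchor at Atpif1 and Dnajc8, 22.1 kb upstream, was joined to the 3 anchors on Sesn2 by 3, 5 and 11 PETs.

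**Figure D5:**
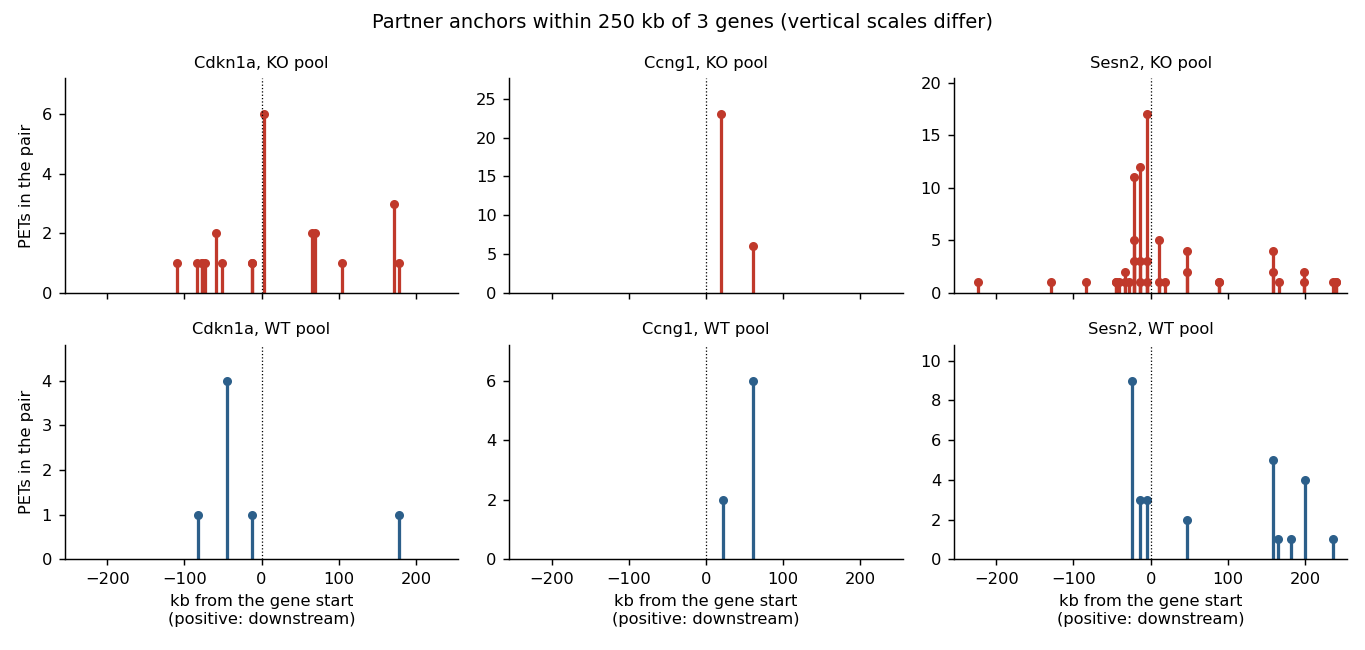
Anchors paired with Cdkn1a, Ccng1 and Sesn2 within 250 kb, with PETs in the pair against the distance in kb from the gene start to the partner's centre, KO pool above and WT pool below, each panel with its own vertical scale. The highest stems are 6, 23 and 17 PETs in KO and 4, 6 and 9 PETs in WT.

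The remaining genes had fewer PETs or shared anchors. Phlda3 had 18 PETs in KO (0.00448%, 95% CI 0.00266% to 0.00708%) and 6 in WT (0.0171%, 0.00626% to 0.0371%). In WT 2 of the 6 led to Csrp1, 36.9 kb upstream, and in KO no pair with another anchor exceeded 1 PET. Btg2 had 0 PETs in KO, which allows a share of up to 0.000747%, and 4 PETs in WT (0.0114%, 95% CI 0.0031% to 0.0291%). A count of 0 in KO was found for 5.90% of the 4375 tested genes with at least 4 PETs in WT. Plk2 had 7 PETs in KO (0.00174%) and 0 in WT, which allows a share of up to 0.00853% at the lower depth of that pool. A count of 0 in WT was found for 33.2% of the 9629 tested genes with at least 4 PETs in KO.

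Mdm2 had 52 PETs in KO (0.0129%, 95% CI 0.00967% to 0.0170%) and 11 in WT (0.0313%, 0.0156% to 0.0559%). Of these, 41 in KO and 5 in WT lay on the anchor at the gene start, and 7 in WT lay on an anchor shared with Cpm. The ratio of shares was 0.414, and it was 0.718 within 2500 bp of the start and 0.241 for pairs over 20 kb apart. Bax had 318 PETs in KO (0.0792%, 95% CI 0.0707% to 0.0884%) and 95 in WT (0.270%, 0.218% to 0.330%). The KO anchor over Bax, 12184 bp long, also covered the ferritin light chain gene Ftl1 and part of Gys1, while WT had 1 anchor over those genes and another at the Bax start. Counting only pairs within 2500 bp of the start left 318 PETs in KO and 25 in WT, and the ratio of shares became 1.11 in place of 0.293. Bbc3 had 53 PETs in KO (0.0132%, 95% CI 0.00988% to 0.0173%) and 9 in WT (0.0256%, 0.0117% to 0.0485%), a ratio of 0.516. Within 2500 bp of the start there were 53 PETs in KO (0.0132%) and 2 in WT (0.00568%), too few in WT for a ratio. The only KO anchor on Bbc3 was 6879 bp long, while the 3 WT anchors measured 2272, 1769 and 2426 bp. For pairs over 20 kb apart the ratio was 0.81.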

How the data were processed

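Read counts per Ensembl gene were used as deposited. The submitters' processing notes name HTSeq 0.9.1, HiC-Pro 2.11.4, HISAT2 2.1.0 and DESeq2 1.18.1, with the build mm10; for strand setting, annotation release and loop caller the sources used here say nothing. Counts assigned to genes were 34.5% to 36.0% of the records, and records in no gene (37.2% to 40.5%), with several alignments (17.5% to 18.9%) or otherwise unassigned were left out. The KO libraries, lettered B and F, were used as 1 group without replicate numbers. The labels call the samples biological replicates, but p-values measure only the spread between these libraries.

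Genotypes were compared by the quasi-likelihood F-test of edgeR 4.0.16 under R 4.3.3 (TMM factors, filterByExpr, genotype only, Benjamini-Hochberg adjustment over 15517 genes). Intervals came from the fold change, its F statistic and the test's degrees of freedom. Alternatives were RLE factors, library totals, DESeq2 1.42.0, limma 3.58.1 voom, other filters and leaving out each library. The test was checked on simulated counts. Deposited PET counts per anchor pair, pooled by the authors per the file names, were summed with pandas 2.3.3, and intervals were exact binomial (Clopper-Pearson, SciPy 1.17.1). Anchor positions were read as 0-based and are given 1-based. Gene positions came from RefSeq GRCm38.p6, matched by symbol.

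The 10 genes and all lists were chosen with earlier results of these data known. Named genes were the 10, up to 4 of each list with the smallest edgeR p, the 3 closest profiles of Trp53 and Cdkn1a, the partner with most PETs per gene and pool, and Klf4. Direct neighbours, Trp53cor1, Eif2s3y, the list members given as examples and the other Ccng1, Cdkn1a and Sesn2 partners were named after their values were seen. One gene that this rule names is not reported here.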

Additional observations from a re-analysis of the deposited data

How the results depend on the processing

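The count of 6 lower genes among the 10 was 5 with library totals only and 7 with DESeq2, and ranged from 3 to 7 when 1 library was left out. For the other p53 targets the range was 4 to 15 against 11 called, and over all genes 1013 to 2517 against 1288, the highest without WT replicate 1. With no filter on low counts edgeR called 2 genes in all, 0 of the 10 and 0 of the other targets, against 7 and 19 at an unadjusted p under 0.05. DESeq2 called 7 and 13 and limma voom 6 and 11. The cause was not tested. With 1 library left out the log2 fold change ranged from -0.76 to 0.051 for Bax and from -0.67 to 0.12 for Bbc3, positive without WT replicate 2 in both and without KO library F in Bbc3 (0.037). The PET share of the 10 genes in KO (0.231%) became 0.211% within 2500 bp of the starts, 0.259% with 5000 bp added to the spans, 0.181% for pairs with at least 2 PETs and 0.121% for pairs over 20 kb apart. In WT (0.682%) it became 0.446%, 0.466% and 0.364% within 2500 bp, with at least 2 PETs and over 20 kb apart. Depth limits the contacts: the WT pool held 35189 PETs, so a count of 0 there allows a share of up to 0.00853%. No paired analysis was possible because the KO columns carry letters and no replicate numbers.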
